A study of Homo sapiens with 12 samples.

Results

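Transcript levels of 10 genes of the amino acid and S-adenosylmethionine (SAM) sensing arm upstream of mTORC1 were examined in HEK293T cells and in their methionine-independent clone R1. The genes were selected by symbol from the 23500 entries of the deposited count table. They include the leucine sensor SESN2, its family member SESN3, the arginine sensor CASTOR1, the SAM sensor SAMTOR (listed as BMT2) and the mTORC1 inhibitor DDIT4. The others are the 3 GATOR1 subunits NPRL2, NPRL3 and DEPDC5, the kinase MTOR and its partner RPTOR. Gene positions are those of GENCODE on GRCh38. SESN2 has a second entry with identical counts, which was counted once among the 10, while the test over all genes kept both entries. All 10 genes were above the summed count minimum of 10 and were among the 17162 genes tested.

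mTORC1 is the kinase complex that couples cell growth to nutrient supply, and RPTOR is the subunit that recruits its substrates. Amino acids act on it through the Rag GTPases at the lysosome, which GATOR1 switches off when nutrients are scarce and GATOR2 counteracts. SESN2 binds GATOR2 and holds it back when leucine is low, and CASTOR1 does the same when arginine is low. SESN3 is a sestrin of the same family as SESN2. SAMTOR binds GATOR1 together with the KICSTOR complex when SAM is low, and SAM is made from methionine. DDIT4 (also known as REDD1) lowers mTORC1 activity by a separate route through the TSC complex and is a stress-induced gene, as is SESN2. These are properties of the proteins, whereas the measurements here are of mRNA only.

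HEK293T, a human embryonic kidney line, and R1 were each kept for 12 h with methionine (+Met) or with homocysteine, its precursor, instead (−Met+Hcy), and each of the 4 groups had 3 libraries. R1 is a single clone derived from HEK293T that grows on homocysteine. The titles of its libraries name R1 while their cell line field names HEK293T, and the titles were followed. The labels do not say whether the libraries came from separate cultures, so p-values measure the spread between these libraries, and in bulk RNA fewer cells of a type and less RNA per cell cannot be told apart.

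Library totals ran from 12664158 to 18771349 counts. The HEK293T markers VIM, NEFM, LIN28B and PAX2 summed to 365 to 879 CPM, the unit of a gene's counts relative to the library total, against 0 to 0.132 CPM for 5 keratin genes, 0 to 1.23 CPM for 3 leukocyte genes and 9.12 to 40.9 CPM for 3 fibroblast genes. VIM alone, at 305 to 834 CPM, made up most of the first sum, and PAX2 stood at 0.205 to 1.33 CPM in HEK293T and at 2.82 to 6.06 CPM in R1. R1 −Met+Hcy replicate 3 stood apart from its group. Each library was compared with the other libraries of its group. The deviations of replicate 3 had a Spearman correlation with transcript GC content of −0.744 over 11043 genes, against 0.600 and 0.730 in its partners and −0.338 to 0.537 in the other 9 libraries, and the common dispersion fell from 0.109 to 0.0349 when it was left out. It did carry the R1 pattern, as 8 genes found in R1 and not in HEK293T in +Met summed to 105 CPM in it, to 198 and 152 CPM in its partners and to at most 8.17 CPM in HEK293T in −Met+Hcy. Some of the results in which it takes part are also given without it.

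**Figure D1:**
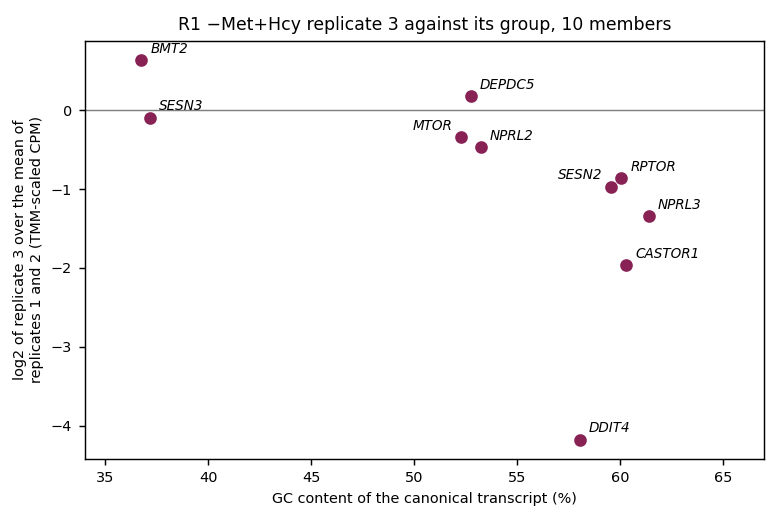
Deviation of R1 −Met+Hcy replicate 3 from the mean of the other 2 libraries of its group for the 10 genes (y axis, log2 of TMM-scaled CPM) against the GC content of each gene's canonical transcript (x axis, %). Each point is 1 gene; BMT2 at 36.8% GC was 0.64 higher, and DDIT4 (−4.18), CASTOR1 (−1.97) and NPRL3 (−1.34) were furthest below their group.

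Among the 10 genes, those with GC-rich transcripts were the ones low in this library. BMT2, with a transcript of 36.8% GC, was 0.64 above its group on the log2 scale, and SESN3, of 37.1% GC, was at −0.095. The 5 genes over 58% GC (DDIT4, SESN2, RPTOR, CASTOR1 and NPRL3) were at −0.86 to −4.18. DDIT4 was far below the others of like GC content. The part of GC content in these deviations was not tested.

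The sequences upstream of SESN2 and DDIT4 are shown because these were the 2 of the 10 genes called between media, both in HEK293T. Each is the 250 bases before the RefSeq transcription start on GRCh38.p14, written 5′ to 3′ on the gene's strand, with a match to ACGTG, the core of the hypoxia response element, in capitals. SESN2 lies on the plus strand of chromosome 1 (window chr1:28259268-28259517) and DDIT4 on the plus strand of chromosome 10 (window chr10:72273674-72273923).
SESN2: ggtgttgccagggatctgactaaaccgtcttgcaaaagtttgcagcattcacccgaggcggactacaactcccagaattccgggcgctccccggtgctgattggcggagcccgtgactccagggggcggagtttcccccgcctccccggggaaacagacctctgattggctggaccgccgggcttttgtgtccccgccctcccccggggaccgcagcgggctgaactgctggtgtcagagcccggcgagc
DDIT4: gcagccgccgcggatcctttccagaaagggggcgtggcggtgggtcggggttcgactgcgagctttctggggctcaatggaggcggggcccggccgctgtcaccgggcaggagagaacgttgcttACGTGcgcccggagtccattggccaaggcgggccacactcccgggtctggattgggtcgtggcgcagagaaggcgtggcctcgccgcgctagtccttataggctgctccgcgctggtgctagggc

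Both windows were rich in GC, at 65.6% and 68.8%, with 19 and 26 CpG dinucleotides. Windows of all 10 genes, reaching from 250 bases before to 50 bases after the start, were searched on both strands for TGATGNAA (the core of the composite elements bound by ATF4), CACGTG (the E-box) and ACGTG (which the E-box contains). TGATGNAA was found in none of the 10 genes, and 3.62% of all 35116 windows held it. CACGTG was found at 26 bases after the start of NPRL3 alone, and 7.26% of all windows held it. ACGTG was found in that E-box and at 125 bases before the start of DDIT4, and 21.4% of all windows held it. These are matches of letters in a short window and not sites of binding.

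In HEK293T cells the change of medium was accompanied by higher SESN2 and DDIT4 mRNA and by no called change in the other 8 genes. Higher calls took 4.25% of all genes in this comparison and lower calls 2.78%, whereas 2 of the 10 genes were higher and none lower. The median log2 fold change of the 10 was 0.11, against 0.03 over all genes. Calls rest on the quasi-likelihood test of edgeR, with p-values adjusted by the Benjamini-Hochberg method across the whole table, and needed an adjusted p under 0.05.

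In R1 cells none of the 10 genes was called by edgeR or by DESeq2, and none had an unadjusted p under 0.05 with either tool. The background was as low, since 0.00583% of all genes, a single gene, was called in R1 by edgeR. That gene was MAT2A, which encodes the SAM synthetase of most cells. DESeq2 called 40 of the 17162 genes, or 0.233%. Without replicate 3 the count of the 10 was again 0, with 2 at an unadjusted p under 0.05. That fit had a lower common dispersion (0.0349 against 0.109). Its share of all genes at that level is not given here, so the 2 have no background to be read against.

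A difference of the medium response between the lines was called for SESN2 alone among the 10, with 0.0583% of all genes called in that contrast. The SESN2 call was made in 9 of 21 alternative settings. DDIT4 had the larger difference, at −4.43 to −3.35 over these settings against −2.81 to −2.21 for SESN2, and was called in 3 of them. Over all genes that contrast gave 0 calls with the replicate block and 245 with DESeq2. It gave 290 of 15857 with the GC and length trend removed. Between the lines in +Met, SESN3 was higher in R1, where 5.69% of all genes were called higher and 4.48% lower. In −Met+Hcy, SESN3 was higher and SESN2 and DDIT4 lower in R1, where the shares of all genes were 7.20% higher and 6.76% lower. All called differences of the 10 genes also exceeded 1 on the log2 scale.

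**Figure D2:**
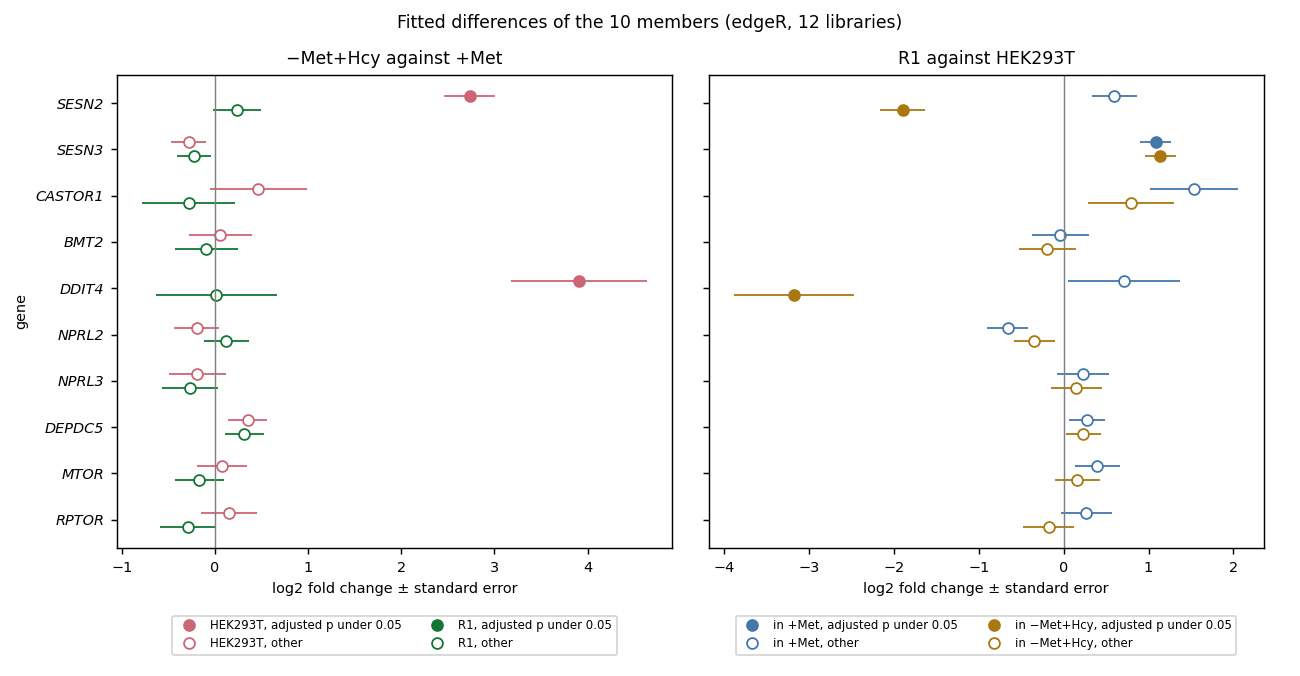
Fitted log2 fold changes (x axis, points) with standard errors (bars) for the 10 genes (y axis); left, −Met+Hcy against +Met in HEK293T and in R1, right, R1 against HEK293T in each medium. Filled points have an adjusted p under 0.05: DDIT4 and SESN2 on the left in HEK293T only, SESN3 on the right in both media, and SESN2 and DDIT4 on the right in −Met+Hcy.

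Fold changes were scaled with TMM factors, and the CPM values given here are from column sums without them. The choice mattered for direction. With column sums the median log2 fold change of all genes was shifted by 0.29 in HEK293T between media, by 0.35 between the lines in +Met and by −0.32 for the difference of responses. It shifted by −0.03 in R1 between media and by 0.02 between the lines in −Met+Hcy. All 10 genes were then positive in HEK293T, against 7 with TMM, since SESN3, NPRL2 and NPRL3 turned from −0.28, −0.20 and −0.19 to 0.010, 0.093 and 0.11.

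Levels of different genes were compared as CPM per kb of the canonical transcript. In HEK293T in +Met, NPRL2 had the highest level at 28.1 ± 1.69 CPM per kb (SD, n = 3), followed by DDIT4 at 20.9 ± 1.33. NPRL3 (9.84 ± 1.01) and MTOR (9.45 ± 1.67) overlapped, and RPTOR was next at 6.18 ± 0.319. SESN2 (3.28 ± 0.536), DEPDC5 (2.62 ± 0.547) and BMT2 (2.58 ± 0.361) could not be ordered beyond the spread of their libraries. The lowest were SESN3 at 1.20 ± 0.146 and CASTOR1 at 0.910 ± 0.390 CPM per kb, which overlapped.

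In −Met+Hcy the order in HEK293T changed at its top. DDIT4 stood first at 385 ± 13.1 CPM per kb, and SESN2 at 26.8 ± 4.04 overlapped NPRL2 at 30.0 ± 4.95. In R1 in +Met, DDIT4 was first at 43.7 ± 7.28 CPM per kb and NPRL2 second at 22.6 ± 4.18, and DEPDC5, CASTOR1, SESN3 and BMT2 shared the bottom between 3.19 and 4.04. In R1 in −Met+Hcy almost all neighbours overlapped, and replicate 3 widened some of the ranges. MTOR, NPRL3, RPTOR and SESN2 overlapped in turn in R1 in +Met as well. Per kb of coding sequence in place of the transcript, 6 to 9 of the 10 genes took another rank, depending on the group, and DDIT4 was then first in all 4 groups.

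**Figure D3:**
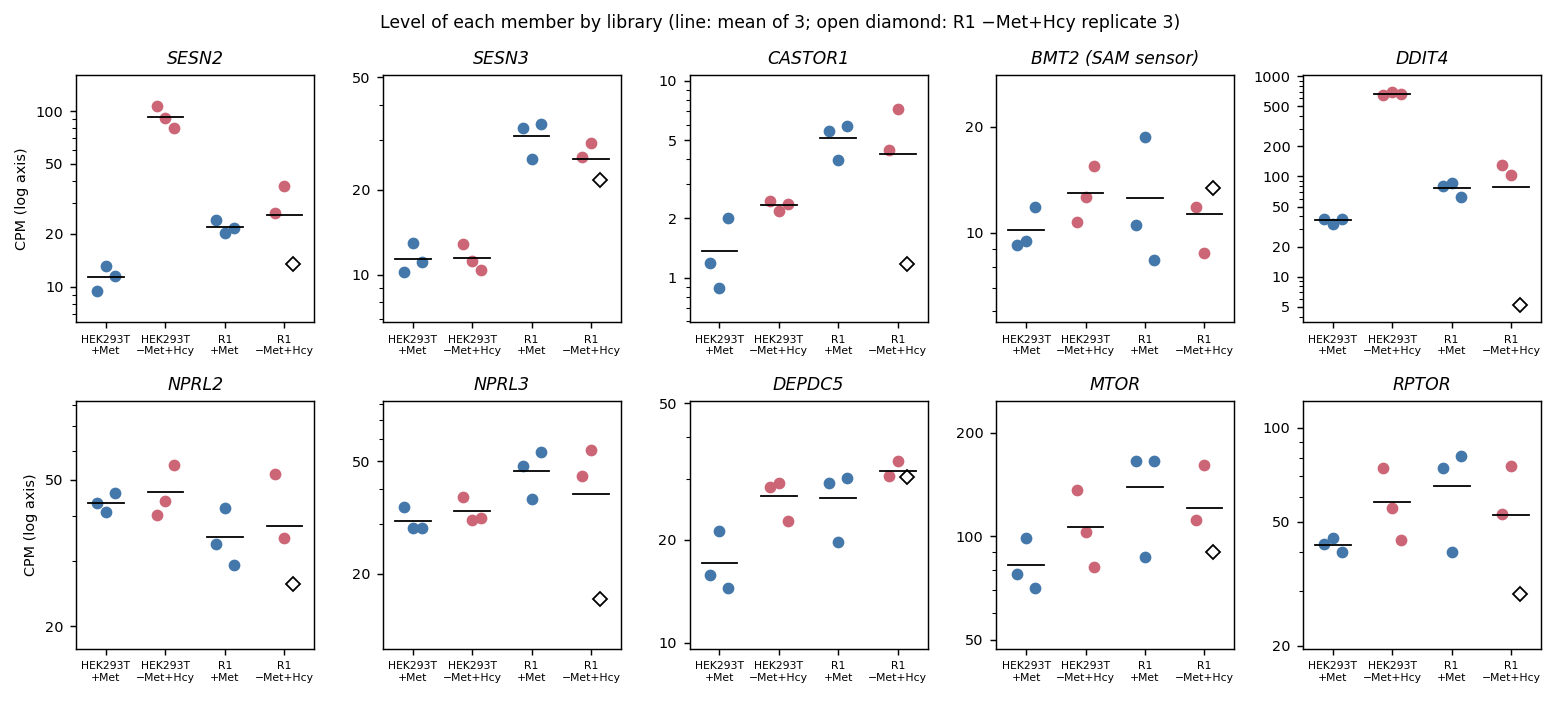
Level of each of the 10 genes (one panel each; y axis, CPM on a log axis) in the 12 libraries, grouped by line and medium (x axis). Points are libraries, horizontal lines the means of 3, and the open diamond is R1 −Met+Hcy replicate 3; SESN2 and DDIT4 rise above all other groups in HEK293T −Met+Hcy, and SESN3 is higher in all R1 than in all HEK293T libraries.

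SESN2 (chr1:28259518-28282491, plus strand), a sestrin induced by stress, had 9.45, 13.2 and 11.5 CPM in HEK293T in +Met and 107, 91.2 and 79.6 CPM in −Met+Hcy. It had 24.1, 20.2 and 21.6 CPM in R1 in +Met and 26.5, 37.3 and 13.5 CPM in R1 in −Met+Hcy. The HEK293T groups lay far apart, whereas the 2 groups of R1 overlapped. SESN2 rose in HEK293T by 2.73 ± 0.275 on the log2 scale (fitted value ± SE), or 6.65-fold, with an adjusted p of 0.000502, and it was called in all 17 alternative settings tried. In R1 the log2 fold change was 0.24 ± 0.26 with an adjusted p of 0.744, and it was 0.50 ± 0.18 without replicate 3 (adjusted p = 0.576).

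The difference of these responses was −2.49 ± 0.371 for SESN2, with an adjusted p of 0.0460. The size held between −2.81 and −2.21 in 21 alternative settings, but the call was made in 9 of them, and the adjusted p ran from 2.97e-07 with DESeq2 to 0.219 without HEK293T −Met+Hcy replicate 2. It was lost with 1 entry kept per set of identical copies (adjusted p = 0.0545) and without any one of 10 of the 12 libraries. It was kept without R1 −Met+Hcy replicate 2, and without replicate 3 it was −2.24 ± 0.243 (adjusted p = 0.00204).

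Between the lines SESN2 was lower in R1 in −Met+Hcy, by −1.90 ± 0.265 (adjusted p = 0.000950), a call made in all 16 alternative settings. In +Met its R1 libraries lay above those of HEK293T with no overlap, but the log2 difference of 0.60 ± 0.26 was not called (adjusted p = 0.171). That difference was called with the 6 libraries of the comparison alone (0.62 ± 0.16, adjusted p = 0.0202) and without R1 −Met+Hcy replicate 3 (0.60 ± 0.16, adjusted p = 0.0146).

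SESN3 (chr11:95165513-95232541, minus strand), the sestrin known as a target of FOXO factors, was called between the lines and not between media. It had 10.2, 12.9 and 11.1 CPM in HEK293T in +Met and 12.9, 11.2 and 10.4 CPM in −Met+Hcy. In R1 it had 33.2, 25.6 and 34.1 CPM in +Met and 26.2, 29.4 and 21.7 CPM in −Met+Hcy. All 6 R1 libraries were thus above all 6 HEK293T libraries, and the media overlapped within each line. Scaled by TMM, the HEK293T media did not overlap, at 12.3 CPM or more in +Met and 11.9 CPM or less in −Met+Hcy. SESN3 was higher in R1 by 1.08 ± 0.184 on the log2 scale in +Met (adjusted p = 0.00375) and by 1.14 ± 0.184 in −Met+Hcy (adjusted p = 0.00194), or 2.12-fold and 2.21-fold. Both calls were made in every alternative setting tried, 17 and 16 in number. Between media its log2 fold change was −0.28 ± 0.18 in HEK293T (adjusted p = 0.392) and −0.23 ± 0.18 in R1 (adjusted p = 0.685).

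The shares of the 3 sestrins can be compared within a library, where the scaling cancels, but they depend on the length used. In HEK293T in +Met, SESN1 made up 54.5% ± 2.27 of sestrin mRNA per kb (SD, n = 3), SESN2 33.3% ± 2.07 and SESN3 12.2% ± 0.406. In −Met+Hcy the share of SESN2 was 80.3% ± 2.94, that of SESN1 16.1% ± 2.94 and that of SESN3 3.62% ± 0.0778. The summed level was 9.82 ± 1.01 CPM per kb in +Met and 33.3 ± 3.82 in −Met+Hcy, and SESN1 itself, from 5.34 to 5.30 CPM per kb, accounted for none of the gain.

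R1 had another composition. In +Met its shares were 46.2% ± 4.34 for SESN2, 30.2% ± 7.70 for SESN1 and 23.6% ± 3.84 for SESN3, with a sum of 13.7 ± 0.214 CPM per kb. In −Met+Hcy they were 48.8% ± 11.9, 32.5% ± 9.95 and 18.7% ± 2.05, with a sum of 14.7 ± 3.62. The share of SESN3 was at least 17.1% in every R1 library and at most 12.6% in every HEK293T library. Per kb of coding sequence, SESN2 and SESN3 stood at 7.90 and 7.74 CPM in HEK293T in +Met and at 64.4 and 7.80 in −Met+Hcy. In R1 they stood at 15.2 and 21.0 in +Met and at 17.9 and 17.4 in −Met+Hcy. By that measure SESN3 came above SESN2 in R1 in +Met, so the order of the shares there rests on the transcript length.

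**Figure D4:**
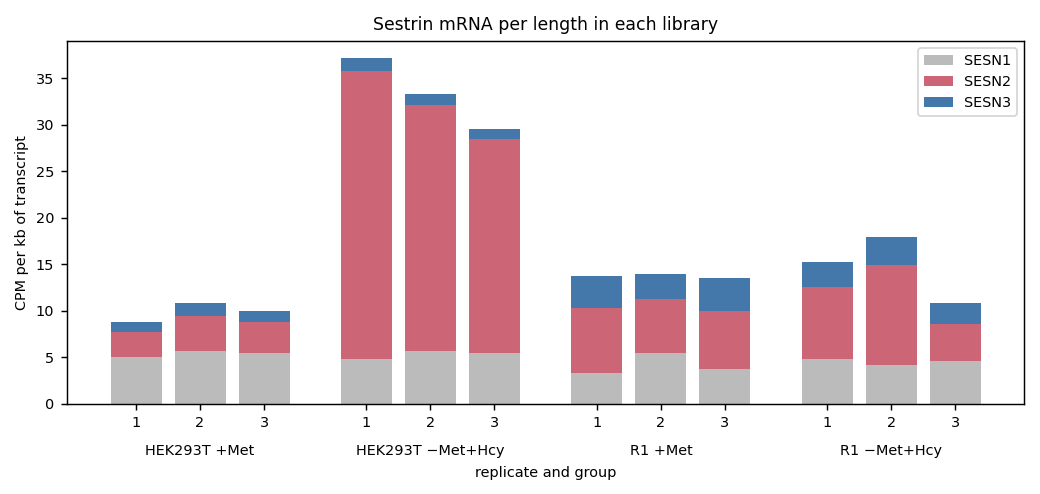
Sestrin mRNA in each of the 12 libraries (x axis, replicates within groups) as CPM per kb of canonical transcript (y axis), stacked for SESN1, SESN2 and SESN3. The 3 HEK293T −Met+Hcy libraries stand at 29.5 to 37.2 in all, mostly SESN2, and the other 9 at 8.77 to 18.0.

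DDIT4 (chr10:72273919-72276036, plus strand) showed the largest response of the 10 genes. In HEK293T it had 38.0, 33.8 and 37.6 CPM in +Met and 647, 693 and 672 CPM in −Met+Hcy. Its R1 values were 80.8, 86.0 and 61.9 CPM in +Met and 129, 104 and 5.27 CPM in −Met+Hcy. The HEK293T libraries within a medium were close together, while R1 −Met+Hcy replicate 3, with 99 counts, was below every other library. DDIT4 rose in HEK293T by 3.91 ± 0.732 on the log2 scale, or 14.99-fold (adjusted p = 0.00933), and the call was made in 14 of 17 alternative settings. It was lost without HEK293T +Met replicate 1, 2 or 3, where the adjusted p was 0.0570, 0.0501 and 0.0528 and the log2 fold change 3.95, 3.83 and 3.94. Without R1 −Met+Hcy replicate 3 the SE of this same difference was 0.181 and the adjusted p 2.21e-07, because all groups share an estimate of the spread.

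In R1 the log2 fold change of DDIT4 between media was 0.01 ± 0.65 with replicate 3 (adjusted p = 1) and 0.56 ± 0.18 without it (adjusted p = 0.519). The difference of responses was −3.89 ± 0.956 and was not called (adjusted p = 0.236). It was called with DESeq2 (−3.89 ± 0.900, adjusted p = 0.00299), with the GC and length trend removed (−3.99 ± 0.741, adjusted p = 0.0214) and without replicate 3 (−3.35 ± 0.254, adjusted p = 0.000114), and in none of the other 18 alternative settings. In −Met+Hcy DDIT4 was lower in R1 than in HEK293T by −3.18 ± 0.707 (adjusted p = 0.0115), and by −2.63 ± 0.200 without replicate 3 (adjusted p = 4.82e-06). This call was lost with the 6 libraries of the comparison alone (adjusted p = 0.110).

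In +Met DDIT4 lay at 61.9 CPM or more in R1 and at 38.0 CPM or less in HEK293T. The log2 difference of 0.71 ± 0.66 was not called (adjusted p = 0.537), but the same difference was called without R1 −Met+Hcy replicate 3 (SE 0.16, adjusted p = 0.00585) and with the 6 libraries alone (0.74 ± 0.18, adjusted p = 0.0134). CHAC1 and TRIB3, stress-induced genes like DDIT4, were also low in that replicate, at 4.16 and 1.07 CPM, against 24.6 and 27.0 CPM for CHAC1 and 21.1 and 24.4 CPM for TRIB3 in its partners. The other reference genes were not low in the same way, since ASNS at 283 CPM was above its partners (254 and 186 CPM), ATF4 at 1079 CPM was close to them (1154 and 1087 CPM) and DDIT3 was at 8.95 CPM against 15.6 and 11.3 CPM. MAT2A at 475 CPM was below its partners (955 and 904 CPM) and above all R1 +Met libraries (173 to 194 CPM). Low values in that library were not limited to these genes. The GATOR2 subunit WDR24 was at 6.39 CPM against a mean of 49.9 CPM in its partners, and the mTORC1 substrate ULK1 at 8.84 against 55.4 CPM. Another GATOR2 subunit, MIOS, was higher, at 95.7 against 60.9 CPM. What set the DDIT4 value of that library was not tested.

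CASTOR1 (chr22:30285117-30289622, minus strand) was scarce, with 13 to 33 counts per library in HEK293T in +Met and 35 to 37 in −Met+Hcy, so that counting error weighs on its values. This corresponded to 1.19, 0.890 and 2.02 CPM in +Met and 2.45, 2.17 and 2.37 CPM in −Met+Hcy, and the log2 fold change of 0.46 ± 0.52 was not called (adjusted p = 0.652). R1 had 5.57, 3.97 and 5.92 CPM in +Met and 4.45, 7.18 and 1.17 CPM in −Met+Hcy, the last from 22 counts in replicate 3. In +Met all R1 libraries were above all HEK293T libraries. The difference between the lines there was 1.54 ± 0.521 on the log2 scale with an adjusted p of 0.0824. It was called in 5 of 17 alternative settings, among them DESeq2 (1.53 ± 0.549, adjusted p = 0.0340) and without R1 −Met+Hcy replicate 3 (1.53 ± 0.317, adjusted p = 0.00331). In −Met+Hcy the difference was 0.79 ± 0.51 (adjusted p = 0.322), and it was 1.22 ± 0.329 and called without replicate 3 (adjusted p = 0.0149). Of the 1501 bases of the CASTOR1 transcript, 1259 are shared on the same strand with a longer gene that had 0 to 6 counts per library, so the division of reads between them is uncertain.

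BMT2 (chr7:112819147-112939875, minus strand) encodes SAMTOR, the member of the arm that reads SAM directly. It had 9.26, 9.45 and 11.8 CPM in HEK293T in +Met and 10.7, 12.6 and 15.5 CPM in −Met+Hcy. In R1 it had 10.6, 18.7 and 8.37 CPM in +Met and 11.8, 8.76 and 13.4 CPM in −Met+Hcy. All 4 groups overlapped. The log2 fold change between media was 0.06 ± 0.34 in HEK293T (adjusted p = 0.946) and −0.10 ± 0.34 in R1 (adjusted p = 0.925), and BMT2 was called in no contrast under any setting. Between the lines the log2 difference was −0.04 ± 0.34 in +Met and −0.19 ± 0.34 in −Met+Hcy.

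The GATOR1 subunits act as a complex that turns off the Rag GTPases, with NPRL2 carrying the catalytic residue and DEPDC5 contacting the Rag proteins. NPRL2 (chr3:50347330-50350826, minus strand) had 43.2, 40.8 and 46.0 CPM in HEK293T in +Met and 40.0, 43.9 and 54.7 CPM in −Met+Hcy. In R1 it had 33.4, 42.0 and 29.4 CPM in +Met and 51.8, 34.7 and 26.1 CPM in −Met+Hcy. In +Met 2 of the 3 R1 libraries lay below the HEK293T range, and in −Met+Hcy the lines overlapped. Scaled by TMM, all 3 R1 libraries in +Met lay below HEK293T, at 26.6 to 40.0 against 46.3 to 55.3 CPM. The log2 difference of R1 from HEK293T in +Met was −0.66 ± 0.24 (adjusted p = 0.107). It was called with the 6 libraries alone (adjusted p = 0.0258), with the GC and length trend removed (adjusted p = 0.0447) and without R1 −Met+Hcy replicate 3 (adjusted p = 0.0260), and with column sums it was −0.31 (adjusted p = 0.421).

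NPRL3 (chr16:84271-138677, minus strand), the structural partner of NPRL2, had 34.4, 28.9 and 29.0 CPM in HEK293T in +Met and 37.2, 31.0 and 31.5 CPM in −Met+Hcy. Its R1 values were 48.1, 36.9 and 54.0 CPM in +Met and 44.3, 54.7 and 16.2 CPM in −Met+Hcy. By column sums R1 lay above HEK293T in +Met, and replicate 3 alone set the overlap in −Met+Hcy. Scaled by TMM the lines overlapped in +Met, at 35.2 to 49.0 CPM in R1 and 32.8 to 41.6 CPM in HEK293T. The log2 differences between the lines were 0.23 ± 0.30 in +Met and 0.15 ± 0.30 in −Met+Hcy, the latter 0.48 ± 0.17 without replicate 3 (adjusted p = 0.0527), and none was called. Of its 3128 transcript bases 451 lie opposite MPG, a DNA repair gene with 158 to 1293 counts per library, and the sources used here do not give the strand setting of the counting.

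DEPDC5 (chr22:31753867-31908033, plus strand) had 15.8, 21.2 and 14.4 CPM in HEK293T in +Met and 28.5, 29.3 and 22.7 CPM in −Met+Hcy. In R1 it had 29.3, 19.7 and 30.4 CPM in +Met and 30.8, 33.9 and 30.6 CPM in −Met+Hcy. By column sums the media did not overlap in either line, but scaled by TMM those of HEK293T did, and the log2 fold changes were 0.35 ± 0.21 in HEK293T (adjusted p = 0.352) and 0.31 ± 0.21 in R1 (adjusted p = 0.664), and the difference of the responses was −0.04 ± 0.30. With column sums the HEK293T value was 0.64 ± 0.23 and was not called (adjusted p = 0.0866). A same-strand gene with 0 to 15 counts per library shares 1809 of its 6554 transcript bases.

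The ratio of NPRL2 to NPRL3 per kb was 2.88 ± 0.337 in HEK293T in +Met and 2.86 ± 0.675 in −Met+Hcy, and 1.61 ± 0.627 and 2.30 ± 0.985 in R1. In +Met the ratio was 2.54 or more in every HEK293T library and 2.31 or less in every R1 library, whereas in −Met+Hcy the lines overlapped. The 2 transcripts differ in GC content, at 53.2% for NPRL2 and 61.4% for NPRL3. In each group the ratio was highest in the library whose deviations had the most negative correlation with GC content. In R1 in −Met+Hcy that was replicate 3, at 3.25 against 2.37 and 1.29 in its partners. The part of GC content in the ratio was not tested.

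MTOR (chr1:11106535-11262556, minus strand), the kinase itself, had 77.8, 98.8 and 70.7 CPM in HEK293T in +Met and 136, 103 and 81.2 CPM in −Met+Hcy. R1 had 165, 86.9 and 165 CPM in +Met and 112, 161 and 90.1 CPM in −Met+Hcy. All groups overlapped, and R1 in +Met was the most variable, at 139 ± 45.2 CPM (SD, n = 3). The log2 fold change between media was 0.07 ± 0.27 in HEK293T (adjusted p = 0.909) and −0.17 ± 0.26 in R1 (adjusted p = 0.825).

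RPTOR (chr17:80544819-80966371, plus strand), the scaffold of the complex, had 42.4, 44.4 and 40.0 CPM in HEK293T in +Met and 74.3, 55.4 and 43.6 CPM in −Met+Hcy. R1 had 74.2, 40.0 and 81.4 CPM in +Met and 52.8, 75.7 and 29.4 CPM in −Met+Hcy. RPTOR and MTOR were high and low in the same R1 +Met libraries. The log2 fold change of RPTOR was 0.15 ± 0.30 in HEK293T (adjusted p = 0.821) and −0.29 ± 0.30 in R1 (adjusted p = 0.735). The ratio of RPTOR to MTOR per kb was 0.663 ± 0.0793 and 0.689 ± 0.00540 in HEK293T in +Met and −Met+Hcy, and 0.596 ± 0.0290 and 0.539 ± 0.106 in R1. Its lowest value, 0.416, was in R1 −Met+Hcy replicate 3. Neither MTOR nor RPTOR was called in any contrast under any setting.

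A list of 45 other genes of the pathway gives the surroundings of the 10. It holds other amino acid sensors, the subunits of GATOR2, KICSTOR, Ragulator and the folliculin and TSC complexes, the Rag GTPases, the remaining mTORC1 and mTORC2 subunits, mTORC1 substrates, DDIT4L and PRMT1, and all 45 were tested. In HEK293T 1 was called higher and 1 lower between media, with a median log2 fold change of −0.02 over the list. Of all genes 4.25% were called higher and 2.78% lower there. KICS2, a KICSTOR subunit, rose by 1.37 ± 0.360 (adjusted p = 0.0410), with 4.69, 8.49 and 8.14 CPM in +Met and 18.4, 23.7 and 24.7 CPM in −Met+Hcy. PRMT1, an arginine methyltransferase that uses SAM and is known to methylate GATOR1, fell by 1.17 on the log2 scale (SE 0.268, adjusted p = 0.0233), with 517, 439 and 516 CPM in +Met and 227, 286 and 287 CPM in −Met+Hcy. The media did not overlap for either gene, and each of the 2 calls was made in 10 of 17 alternative settings.

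The count of this list depended on the libraries, as did the count over all genes. Without R1 −Met+Hcy replicate 3, 7 of the 45 were called higher and 6 lower in HEK293T, where 2593 and 2138 of 17069 genes were called in all. In R1 none of the 45 was called by edgeR or DESeq2, with 3 higher and 2 lower at an unadjusted p under 0.05 by either tool. At that level 974 and 362 of 17162 genes were higher and lower by edgeR and 1094 and 451 by DESeq2. For the difference of responses none was called by either tool, with 2 higher and 1 lower at that level by edgeR and 3 and 1 by DESeq2, where 793 and 866 of all genes were by edgeR and 954 and 941 by DESeq2.

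Between the lines in +Met 2 of the 45 were called, both lower in R1, and in −Met+Hcy 2 were higher and 2 lower. Of all genes 5.69% were higher and 4.48% lower in +Met, and 7.20% and 6.76% in −Met+Hcy. Those in +Met were SEH1L, a GATOR2 and nucleoporin subunit (−1.18 ± 0.196, adjusted p = 0.00333), and PRMT1 (−1.11 ± 0.268, adjusted p = 0.0218). In −Met+Hcy EIF4EBP2, a translation repressor under mTORC1, was higher (0.99 ± 0.19, adjusted p = 0.00596) and its paralogue EIF4EBP1 lower (−1.39 ± 0.382, adjusted p = 0.0315). TSC1 was higher by 0.73 ± 0.21 (adjusted p = 0.0417), and MLST8, a subunit shared by both mTOR complexes, was lower by −0.80 ± 0.22 (adjusted p = 0.0307). In +Met SEH1L was called in all 17 alternative settings and PRMT1 in 12. In −Met+Hcy EIF4EBP2 was called in 15 of 16, EIF4EBP1 and TSC1 in 10 each and MLST8 in 9. These genes of the line comparisons are named after their values were seen. Without replicate 3 the list had 6 higher and 10 lower in +Met and 5 higher and 7 lower in −Met+Hcy. Of all 17069 genes then tested, 2909 were higher and 2673 lower in +Met and 2680 and 2488 in −Met+Hcy.

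**Figure D5:**
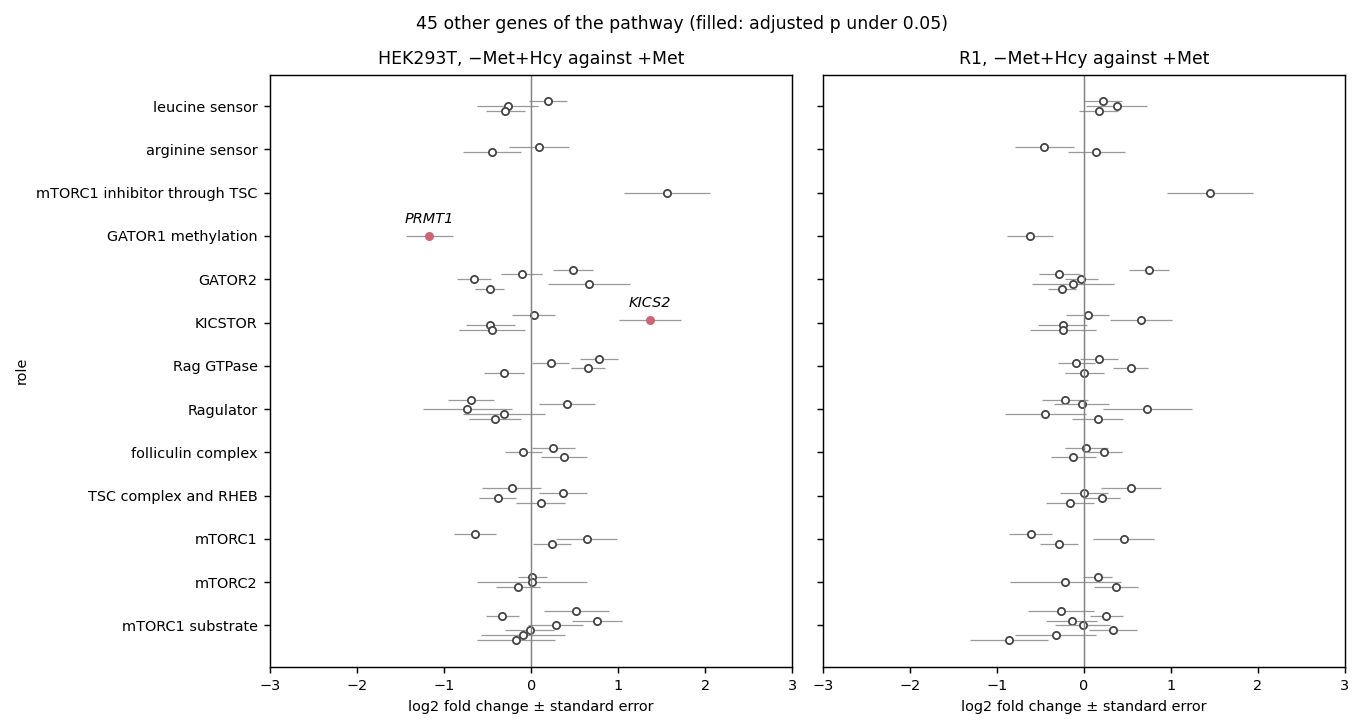
Log2 fold changes (x axis, points) with standard errors (bars) between media for 45 other pathway genes, grouped by role (y axis); left HEK293T, right R1. Filled points have an adjusted p under 0.05, which are KICS2 and PRMT1 in HEK293T and none in R1.

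Genes of the integrated stress response and of SAM synthesis served as a reference for the medium. In HEK293T CHAC1, a glutathione-degrading enzyme, rose by 4.68 ± 0.503 (adjusted p = 0.000537), MAT2A by 1.58 ± 0.211 (adjusted p = 0.00204), the transcription factor DDIT3 by 1.39 ± 0.260 (adjusted p = 0.00933) and asparagine synthetase, ASNS, by 1.32 ± 0.254 (adjusted p = 0.0107) on the log2 scale. ATF4, the central factor of that response, which is controlled in large part at translation, was at 0.34 ± 0.17 (adjusted p = 0.265), and TRIB3 at 1.13 ± 0.642 (adjusted p = 0.327). In R1 MAT2A rose by 2.09 ± 0.215 (adjusted p = 0.00698), and CHAC1 was at 2.11 ± 0.463 (adjusted p = 0.622). Over 16 alternative settings CHAC1 in R1 stood at 1.76 to 2.56 and was called in 3, and MAT2A was called in 12. DDIT4 and SESN2 in HEK293T thus lay between CHAC1 and the other 3 called genes in size.

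The genes whose pattern was most like that of a member were found by Pearson's r of log2 CPM over the 12 libraries among 11168 genes, which is a description, as the libraries share groups, depth and replicate 3. For SESN2 they were FAM50B (r = 0.978), MGME1 (0.974) and CRYBB2 (0.971). For DDIT4 they were H1-10 (0.993), PLPP6 (0.987) and PRMT6 (0.985), and H1-10 averaged 113 and 659 CPM in HEK293T in +Met and −Met+Hcy and 169 and 167 CPM in R1. For BMT2 they were RBBP4 (0.951), CCDC32 (0.932) and SLC31A1 (0.924).

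The names depended on replicate 3. Without it the first 3 were AFTPH, DCLRE1B and MAGEF1 for SESN2 and RBBP4, MRPL49 and DCUN1D4 for BMT2. RBBP4 for BMT2 was named both times, and none was for SESN2. For DDIT4, H1-10 and PRMT6 were among the closest genes both times.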

How the data were processed

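RNA sequencing libraries of HEK293T and R1 cells, 3 per line and medium, were analysed. Per the labels and the methods, the authors quantified reads with kallisto 0.48.0 against GRCh38, summed the estimated counts per Ensembl gene, converted them to whole numbers and deposited these expected counts without scaling. Pseudoalignment divides reads among similar transcripts, so overlapping and duplicated genes share reads. A sequencing company prepared the libraries, and the kit and strand setting are not given in the sources used here.

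Genes with a summed count under 10 were excluded. One edgeR 4.0.16 model (R 4.3.3) with 4 group means and TMM factors was fitted to all 12 libraries, leaving 8 residual degrees of freedom, and 5 contrasts were tested by quasi-likelihood with Benjamini-Hochberg adjustment. CPM used column sums. Transcript lengths, GC content and overlaps came from GENCODE v44, promoters from RefSeq on GRCh38.p14 (all 10 genes matched). Counts per library set the precision, and SDs over 3 libraries include counting error.

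The alternatives were DESeq2 1.42.0, RLE scaling, column sums (chosen after the data were seen), edgeR's filterByExpr, no filter, a replicate block, robust estimation, 1 entry per set of identical copies, the libraries of a comparison alone, GC and length trends removed (loess, span 0.3), and each library left out. With fewer than 3 libraries in a group, the others lent their spread. The procedure was tested on simulated data for the HEK293T medium contrast alone. Their dispersion was near that of the fit without R1 −Met+Hcy replicate 3 and below that of the fit to all libraries. Named were the 10 members, up to 12 listed pathway or reference genes called in HEK293T and up to 8 called in the difference, and the 3 genes most like SESN2, DDIT4 and BMT2. The members and lists were chosen with earlier results of these data known. One gene of the likeness results is not reported here.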

Additional observations from a re-analysis of the deposited data

Results flagged for a closer look

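SESN2 is the result to look at again among the 10 genes, because its response to the medium differed between the lines by a test of the difference itself. The contrast of R1 minus HEK293T was −2.49 on the log2 scale (SE 0.371, edgeR's quasi-likelihood test, adjusted p = 0.0460). SESN2 rose 6.65-fold in HEK293T cells and stood at 1.18-fold in R1 cells, where replicate 3 of −Met+Hcy, at 13.5 CPM, was the lowest of the 6 libraries. The difference was −2.24 (SE 0.243, adjusted p = 0.00204) without that library, and over 21 settings it ran from −2.81 to −2.21 with an adjusted p of 2.97e-07 to 0.219. The call was made in 9 of these 21 settings and was lost with 1 entry per set of identical copies (adjusted p = 0.0545), with the replicate block (adjusted p = 0.112) and without any one of 10 of the 12 libraries. Over all genes, 4 of 16511 were called in this contrast with 1 entry per set and 0 of 17162 with the replicate block.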

How the results depend on the processing

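Counts of the 10 genes called in R1 between media (0), and of the 45 pathway genes there (0), stayed at 0 in all alternatives, and no value that had been called changed sign. The count of the 10 was 1 to 2 in HEK293T with each library left out. For the difference of responses (1 in the report) it was 2 with DESeq2 or with the GC and length trend removed, 0 with 1 entry per set of identical copies, 0 with the replicate block and 0 to 2 with each library left out. Over all genes that contrast (10 of 17162 in the report) had 245 calls with DESeq2 and 290 of 15857 with the trend removed. It had 4 of 16511 with 1 entry per set and 0 with the replicate block. For the lines in +Met (1 in the report) the count of the 10 was 2 with DESeq2 or column sums, 5 with the libraries of the comparison alone, 3 with the trend removed and 1 to 5 with each library left out, the 5 being without R1 −Met+Hcy replicate 3. In −Met+Hcy (3 in the report) it was 2 to 4.

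The count of the 45 pathway genes in HEK293T (2 in the report) was 7 with DESeq2, 5 with column sums, 0 with the replicate block, 17 with the 6 libraries alone, 14 with the trend removed and 0 to 13 with each library left out. For the difference of responses (0) it was 1 with the trend removed. In +Met (2) it was 7 with DESeq2, 4 with column sums, 12 with the 6 libraries alone, 9 with the trend removed and 1 to 16 with each library left out. In −Met+Hcy (4) it was 2 with column sums, 2 with the replicate block, 0 with the 6 libraries alone, 8 with the trend removed and 1 to 12 with each library left out. The highest count with a library left out was without R1 −Met+Hcy replicate 3 in each of these 3 comparisons. Counts over all genes moved as well. In HEK293T (1207 of 17162 in the report) they were 2237 with DESeq2, 2007 with column sums and 618 with the replicate block. In +Met (1745) they were 2884 with DESeq2 and 2608 with column sums. In −Met+Hcy (2395) they were 2216 with column sums and 1659 with the replicate block. HEK293T had 5562 of 16275 with the 6 libraries alone, 3211 of 15857 with the trend removed and 289 to 4731 with each library left out. In the same order the counts were 4865 of 16201, 3345 of 15857 and 626 to 5582 in +Met. They were 498 of 16523, 4694 of 15857 and 1079 to 5168 in −Met+Hcy. The cause of these shifts was not tested.

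Same-numbered libraries of 2 groups had correlations of their deviations from −0.718 to 0.595 (18 pairs), against −0.763 to 0.766 for other pairs, so the numbers were not taken to pair libraries. With the replicate block the SESN2 difference of responses had an adjusted p of 0.112 by edgeR's quasi-likelihood test. Of the values of single genes, 844 kept their direction and call or moved within the spread, 44 moved further, 16 gained and 16 lost a call. Depth limits CASTOR1 most, with 13 to 109 counts per library.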
